A study of Mus musculus with 48 samples.

Results

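The genes described here are 9 genes of alcohol and retinoid metabolism in NIH3T3 mouse fibroblasts: Adh1, Adh7, Aldh1a1, Aldh1a2, Aldh1a3, Aldh1a7, Rarb, Crabp1 and Stra6. They were taken by gene symbol, with every probe set that carries 1 of these symbols on the array, which gave 12 probe sets of the 45037 tested and 9 of the 18193 genes with a symbol of their own. For each gene the brightest probe set on average leads, and the others are given beside it. The list was drawn up with the log2 values over these 48 arrays known, and some members were selected on their course, so their levels and slopes are a description and carry no p-value here. NIH3T3 is an established line of mouse embryonic fibroblasts. The cells were grown to confluence in serum-containing medium and synchronized with forskolin, which raises cyclic AMP, and 1 array was run for each hour from 20 to 67 after forskolin. All 48 arrays belong to this 1 treated group, with no repeat of any hour and no unsynchronized cells analysed here. Standard errors therefore reflect the scatter of hourly arrays about a fitted course, with any bend that the fit leaves out. A course cannot be told apart from time in confluent culture. The values are log2 intensities of Affymetrix Mouse Genome 430 2.0 arrays. Differences on this scale are log2 differences, and levels of different probe sets are set only against the median of all, to tell detected from weak signals, because probes bind with different strength.

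Retinoic acid is made from vitamin A in a pair of oxidation steps. Retinol is first oxidized to retinaldehyde by alcohol dehydrogenases (Adh1, Adh7) or by retinol dehydrogenases of the short-chain family (Rdh10 and others), a step that Dhrs3 runs in reverse, and retinaldehyde is then oxidized to retinoic acid by the retinaldehyde dehydrogenases (Aldh1a1, Aldh1a2, Aldh1a3). Stra6 is a cell-surface receptor for retinol uptake, Crabp1 and Crabp2 bind retinoic acid in the cytoplasm, and Cyp26 enzymes degrade it. Retinoic acid acts through nuclear receptors (Rara, Rarb, Rarg) paired with Rxr proteins, and Rarb is itself a classical target gene of the pathway. Adh1 and the aldehyde dehydrogenases also clear ethanol, acetaldehyde and aldehydes from lipid peroxidation.

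Members of both enzyme families lie beside each other in the mouse genome. In RefSeq, Adh7 and Adh1 share chromosome 3 with only 2 long non-coding RNAs listed between them, and Aldh1a1 and Aldh1a7 share chromosome 19 with 2 long non-coding RNAs and 1 pseudogene between them. RefSeq promoter windows of mouse build GRCm38.p6, from 250 bases before to 50 bases after a start site, were at hand for 8 of the 9 genes, and Aldh1a3 had none. The sequences just before the starts of the neighbouring pairs are printed because these are the 4 members with the steepest slopes, and that of Rarb because it carries the element through which retinoic acid receptors are known to act on it. All read 5′ to 3′ on the gene's own strand and end at the base before the start. Their positions are chr3:138277435-138277584 on the plus strand (Adh1), chr3:138217623-138217772 on the plus strand (Adh7), chr19:20601848-20601967 on the plus strand (Aldh1a1, the second of its 2 listed starts), chr19:20727557-20727676 on the minus strand (Aldh1a7) and chr14:16575477-16575596 on the minus strand (Rarb). Capitals mark CCAAT boxes in Adh7, Aldh1a1 and Aldh1a7, the octamer ATGCAAAT in Aldh1a1 and Aldh1a7, and a direct repeat of the retinoic acid receptor half-site (DR5) in Rarb.
Adh1: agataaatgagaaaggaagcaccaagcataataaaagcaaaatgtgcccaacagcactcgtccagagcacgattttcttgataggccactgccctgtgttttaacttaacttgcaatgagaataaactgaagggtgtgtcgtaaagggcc
Adh7: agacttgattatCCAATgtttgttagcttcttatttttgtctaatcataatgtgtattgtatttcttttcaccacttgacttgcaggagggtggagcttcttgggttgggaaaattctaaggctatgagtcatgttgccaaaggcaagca
Aldh1a1: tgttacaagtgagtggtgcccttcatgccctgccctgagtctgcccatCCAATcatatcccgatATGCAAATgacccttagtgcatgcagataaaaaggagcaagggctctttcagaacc
Aldh1a7: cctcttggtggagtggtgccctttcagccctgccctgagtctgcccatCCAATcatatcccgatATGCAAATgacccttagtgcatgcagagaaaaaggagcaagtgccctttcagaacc
Rarb: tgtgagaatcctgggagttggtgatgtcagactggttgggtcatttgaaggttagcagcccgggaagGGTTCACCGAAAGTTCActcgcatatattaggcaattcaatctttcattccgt

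The Aldh1a1 and Aldh1a7 sequences are close copies, with 105 of 120 bases identical (87.5%), falling to 66.0% over 250 bases. Both hold the CCAAT box at -72 to -68 and the octamer at -56 to -49. The motifs are not particular to this pair: Aldh1a2, at the bottom of the signal scale, holds the octamer at -84 to -77 and a CCAAT box at -36 to -32, and Adh7 and Stra6 hold CCAAT boxes. Adh1 and Adh7 share 46.6% over the same 120 bases, so the neighbours on chromosome 3 do not show such a match. Searched on both strands, the octamer occurs in 1.74% and the CCAAT box in 37.4% of all 32851 mouse windows of this length, and these motifs were picked after the sequences had been read. The DR5 element of Rarb at -53 to -37 occurs in 0.0974% of windows and in no other of the 8 genes, DR2, the same half-sites at a shorter spacing, in 0.268%. Adh1 alone of the 8 holds the E-box CACGTG, the element bound by the clock factors Clock and Bmal1, at +5 to +10 (7.15% of windows), and none holds the cyclic AMP response element TGACGTCA (1.79%). A match says only that the letters are there.

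The members fell into 2 clear sets by level. Adh1, Adh7, Aldh1a1, Aldh1a7 and Crabp1 had means above 6.67, the median of all probe set means on the log2 scale, with 6 probe sets between them. Aldh1a2, Aldh1a3, Rarb and Stra6, with the other 6 probe sets, had means of 5.40 to 5.55, close to the lowest signals on these arrays, so that a change in them might not be detectable. All 5 genes of the first set rose between hour 20 and hour 67, and none fell. By limma's test of a linear slope over all probe sets, at an adjusted p of 0.05, 5 of 9 members passed upwards, where 14.2% of all 45037 probe sets passed upwards and 16.2% downwards (26.4% each way among probe sets above the median). As the genes were chosen with this course in view, nothing is read from that count.

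**Figure D1:**
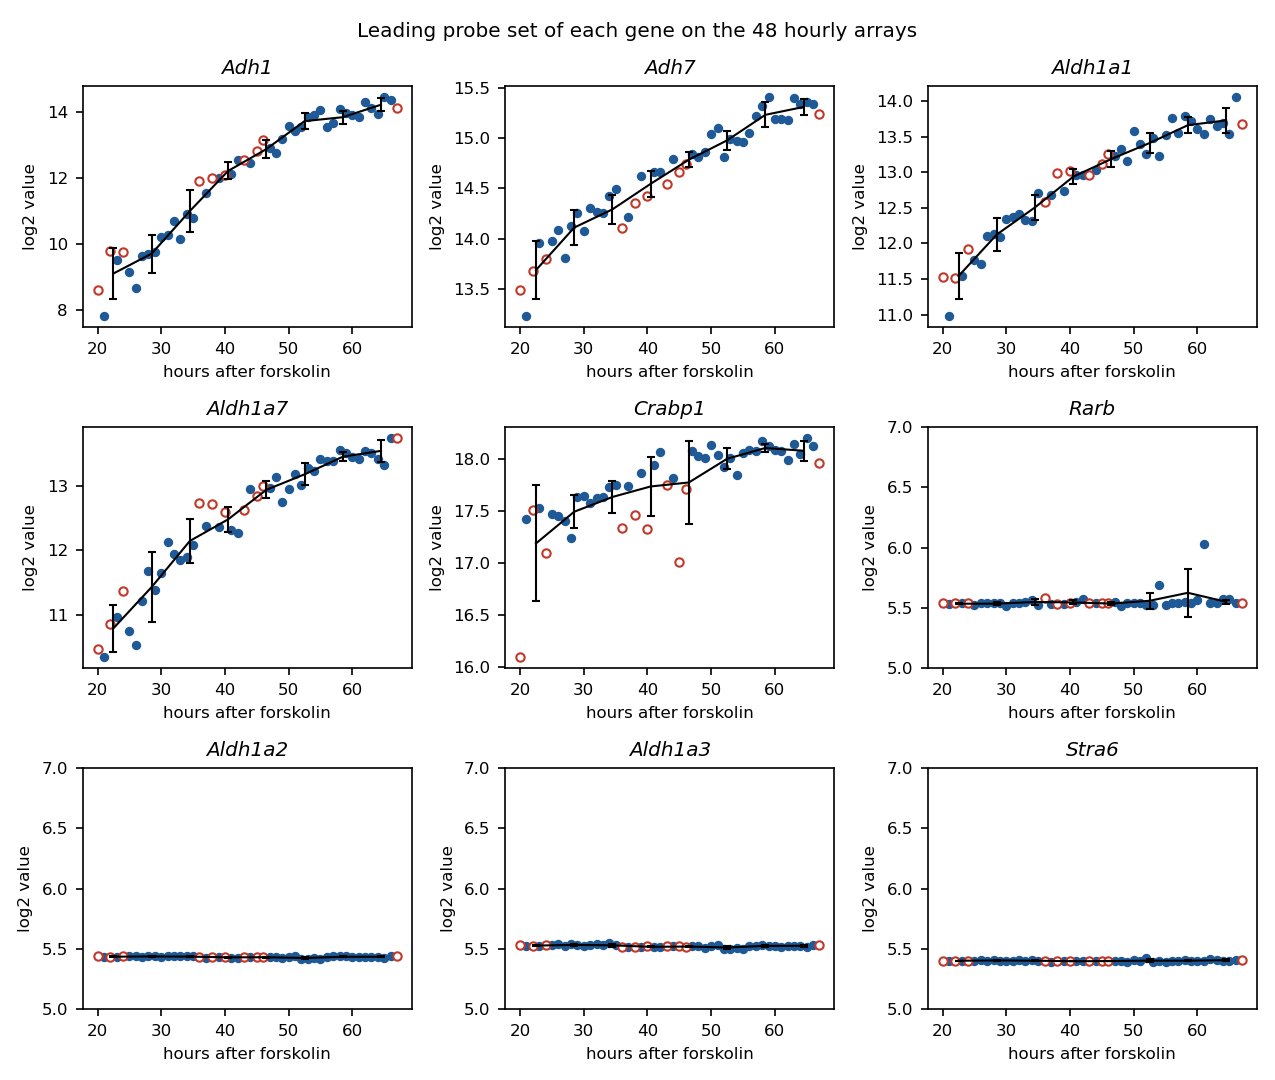
Log2 value (vertical axis) of the leading probe set of each of the 9 genes against hours after forskolin (horizontal axis), with 1 point for each of the 48 arrays. The black line joins means of 6 consecutive hours with their SD, and open red points mark the 10 arrays with a β-actin 3′ minus 5′ difference above 1.4. Adh1, Adh7, Aldh1a1 and Aldh1a7 climb, more steeply on the first day than on the next, and Crabp1 climbs with low points on several red arrays. The other 4 genes stay near 5.5 apart from Rarb values of 5.69 and 6.03 on separate arrays.

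Adh1, the class I alcohol dehydrogenase that oxidizes ethanol and retinol, moved furthest. Its values (1416225_at) ran from 7.83 at hour 21 through a median of 12.54 to 14.46 at hour 65. Means of 6 consecutive hours began at 9.12 ± 0.77 (SD, n = 6) for hours 20 to 25, passed through 9.72 ± 0.57, 11.01 ± 0.62, 12.22 ± 0.26, 12.88 ± 0.28, 13.73 ± 0.24 and 13.85 ± 0.20 in turn, and ended at 14.22 ± 0.19 for hours 62 to 67. The signal was thus low and scattered in the first hours, climbed fastest between hours 26 and 43, and was high and even at the end, 34.4-fold above the first 6 hours. The fitted slope was 3.13 ± 0.14 (SE) log2 units per 24 h, an 8.76-fold rise per day (95% interval of the slope 2.85 to 3.41, normal approximation), and had rank 4 from the top among the 45037 probe sets.

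Adh7, the class IV alcohol dehydrogenase, known for its activity on retinol and best known from stomach and other epithelia, rose more slowly and more evenly. Its leading probe set (1421058_at) ran from 13.23 at hour 21 through a median of 14.66 to 15.41 at hour 59, and its means rose from 13.69 ± 0.29 (SD, n = 6) in hours 20 to 25 to 15.31 ± 0.08 in hours 62 to 67, a 3.07-fold difference. The slope was 0.92 ± 0.04 log2 units per 24 h, a 1.89-fold rise per day. The second probe set (1450110_at) ran from 10.56 at hour 20 through 12.49 to 13.58 at hour 65, and was steeper, at a 2.83-fold rise per day (95% interval of the slope 1.35 to 1.65). The probe sets of Adh7 therefore share the direction but not the size of the rise. Markers of epithelium were not above the median on these arrays, and 5 of 5 (Cdh1, Epcam, Krt8, Krt18 and Krt19) had means of 5.42 to 5.59 and summed to 7.80 to 7.82 in the early and 7.78 to 7.82 in the late hours on the log2 scale.

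Aldh1a1, a retinaldehyde dehydrogenase that makes retinoic acid, ran from 10.98 at hour 21 through a median of 13.02 to 14.06 at hour 66 (1416468_at). Its means rose from 11.54 ± 0.32 (SD, n = 6) in hours 20 to 25 to 13.73 ± 0.18 in hours 62 to 67, a 4.55-fold difference, with a slope of 1.23 ± 0.06 log2 units per 24 h. Aldh1a7, a rodent paralog of Aldh1a1, ran from 10.34 at hour 21 through 12.74 to 13.75 at hour 67 (1418601_at). Its means rose from 10.79 ± 0.37 to 13.55 ± 0.17 between the same blocks, a 6.76-fold difference, with a slope of 1.54 ± 0.09. Both neighbours on chromosome 19 had their lowest value on the same array, hour 21, as did Adh1 and the leading Adh7 probe set. Their coding sequences are closely related, and how far the probes of 1 bind the transcript of the other could not be tested, because probe sequences were not analysed here. Their values correlated at r = 0.977 over the 48 arrays. The correlation was r = 0.475 once a straight and a bent trend, but no daily cosine, had been taken out of each. Both values are a description over arrays that share the same time order.

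Crabp1, the cytoplasmic retinoic acid binding protein, had the smallest rise of the 5. It ran from 16.10 at hour 20 through a median of 17.83 to 18.20 at hour 65 (1448326_a_at), and its means went from 17.19 ± 0.56 (SD, n = 6) in hours 20 to 25 to 18.08 ± 0.09 in hours 62 to 67, a 1.85-fold difference. The slope was 0.52 ± 0.07 log2 units per 24 h, a 1.44-fold rise per day. Hour 20 held the lowest value by a wide margin, and without it the slope was 0.44 ± 0.05.

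**Figure D2:**
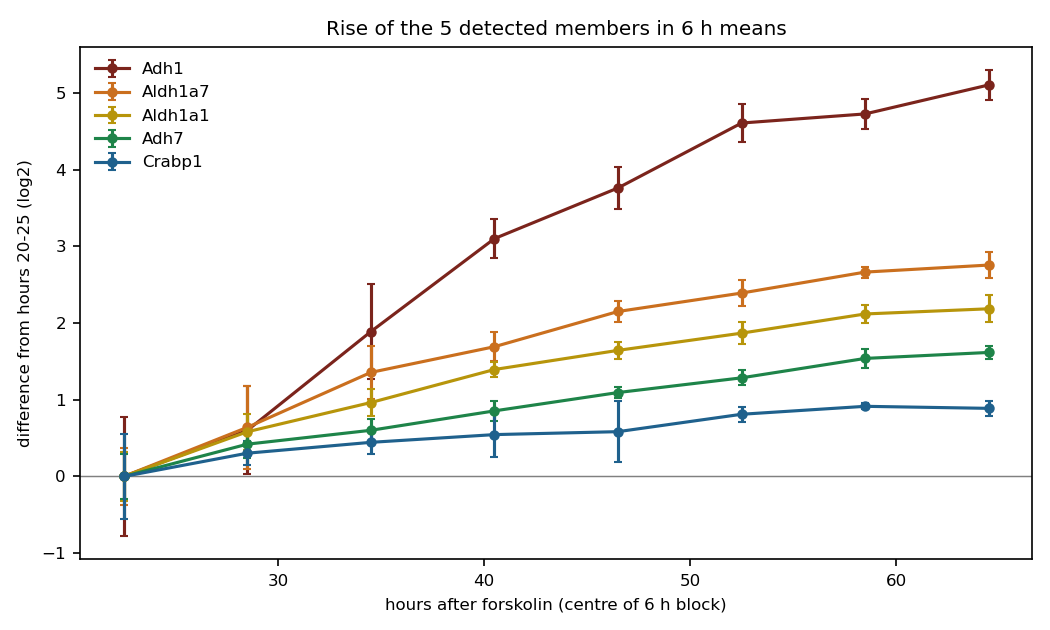
Difference in mean log2 value from hours 20 to 25 (vertical axis) against the centre of each 6 h block in hours after forskolin (horizontal axis) for the 5 members above the median, with bars for the SD of the 6 arrays of a block. Adh1 gained 5.11 log2 units by the last block, Aldh1a7 2.76, Aldh1a1 2.19, Adh7 1.62 and Crabp1 0.89, and the lines flatten towards the end.

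Because the course covered 2 days, each hour of the first day could be set against the same hour of the next, which leaves out any daily rhythm. Adh1 was at 7.83 to 12.55 (median 10.25) in hours 20 to 43 and at 12.45 to 14.46 (median 13.86) in hours 44 to 67. Adh7 was at 13.23 to 14.67 (median 14.23) and then at 14.66 to 15.41 (median 15.08). In each of these genes only 2 early arrays and 1 late array overlapped. Aldh1a1 was at 10.98 to 13.02 (median 12.34) and then at 13.03 to 14.06 (median 13.54), and Aldh1a7 at 10.34 to 12.74 (median 11.87) and then at 12.75 to 13.75 (median 13.36). For both, every late array was above every early one, though narrowly, a property of 0.0466% of all probe sets (0.0933% of those above the median), while 0.0555% had every late array below. Crabp1 overlapped widely, at 16.10 to 18.07 (median 17.55) and then 17.01 to 18.20 (median 18.05). The later array was higher in 24 of 24 pairs of arrays 24 h apart for Adh1, Adh7, Aldh1a1 and Aldh1a7, and in 23 of 24 for Crabp1. The fitted differences were 3.15 ± 0.22 (SE) log2 units for Adh1, 0.91 ± 0.07 for Adh7, 1.22 ± 0.09 for Aldh1a1, 1.57 ± 0.12 for Aldh1a7 and 0.48 ± 0.09 for Crabp1. This fit holds no hour term, so these errors also take in the climb inside each window. All 5 passed limma's window test upwards, beside 12.6% of all probe sets upwards and 13.8% downwards. As the genes were chosen with this course in view, nothing is read from these counts.

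The fitted slope was higher on the first day than on the next for all 5 detected members. Adh1 gained 4.31 ± 0.30 (SE) log2 units per 24 h within hours 20 to 43 and 1.66 ± 0.17 within hours 44 to 67. Aldh1a7 went from 2.36 ± 0.21 to 0.83 ± 0.09 and Aldh1a1 from 1.83 ± 0.12 to 0.71 ± 0.10. Adh7 slowed less on its leading probe set, from 1.11 ± 0.12 to 0.70 ± 0.07. Its other probe set (1450110_at) went from 1.88 ± 0.17 to 0.76 ± 0.17. Crabp1 went from 0.77 ± 0.21 to 0.42 ± 0.15. A quadratic term in the fit was negative for Adh1 (-1.33 ± 0.18), Aldh1a7 (-0.76 ± 0.11), Aldh1a1 (-0.56 ± 0.07) and Adh7 (-0.21 ± 0.07), and these 4 of 9 members passed limma's test for a downward bend, beside 4.38% of all probe sets with a downward and 3.21% with an upward bend. As members were selected on their course, nothing is read from that count. The bend of the leading Adh7 probe set no longer passed without hours 20 to 25 (-0.13 ± 0.08). It was also lost with the 10 arrays marked for β-actin left out (-0.26 ± 0.09). The other Adh7 probe set (1450110_at) had a bend of -0.57 ± 0.11 on all arrays. The bend of Crabp1, -0.19 ± 0.13 on all arrays, passed without those 10 arrays (-0.26 ± 0.06).

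The 4 members at the bottom of the scale gave almost constant values. Aldh1a2, the main retinoic acid synthase of the embryo, stayed between 5.42 and 5.44 (1422789_at). Aldh1a3, the third retinaldehyde dehydrogenase, stayed between 5.50 and 5.55 on its leading probe set (1448789_at), with slopes of -0.003 for both its other probe sets (1427395_a_at and 1417642_at). Stra6, the retinol uptake receptor, stayed between 5.39 and 5.43 (1422723_at). Rarb, the retinoic acid receptor whose gene retinoic acid induces, had a median of 5.54 and left that level on single arrays only, with 5.69 at hour 54 and 6.03 at hour 61 (1454906_at). No neighbouring hour shared either excursion. None of the 6 probe sets had a slope larger than 0.022 log2 units per 24 h in size.

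No member cycled by the criteria used. limma's test of a 24 h cosine beside the linear slope called 0 of 9 members at an adjusted p of 0.05, and 0 had an unadjusted p under 0.05, with adjusted p-values from 0.63 to 0.973, beside 0.293% of all probe sets called. Fitted amplitudes of the 5 detected genes were 0.04 ± 0.12 (SE, Adh1) to 0.13 ± 0.07 (Aldh1a7) log2 units. With an error of that size, a small rhythm in Adh1 could have gone unseen. A best-fitting cosine of 6 to 30 h was run here in place of the COSOPT program of the study's methods, with Fisher's G-test, which the methods name. A call needed a q-value under 0.05 in both, a cosine period between 20 and 30 h and a main G-test component at 24 h. By this rule 0 of 9 members were called, beside 0.202% of all probe sets. The lowest q-value of the cosine fit among the members was 0.080. The cosine fit alone gave an unadjusted p under 0.05 for 1 member, Adh1 (p = 0.0208, 48 arrays), at the longest period allowed, 30 h. The G-test, run on values that still held the trend, put its main component at 48 h, the length of the course, in 7 of 9 members. These were the 5 detected genes and, at the bottom of the scale, Aldh1a2 and Aldh1a3. It was at 24 h in 0, and a trend left in the values can keep a climbing gene from such a call. Shares over all probe sets were not worked out for these components or for the unadjusted cosine p, so nothing is read from these counts. On the same arrays the clock genes Nr1d2, Per3 and Dbp cycled with amplitudes of 0.82 ± 0.03, 0.95 ± 0.05 and 0.73 ± 0.04 log2 units and adjusted p-values of 2.23e-24, 3.12e-19 and 3.19e-17 (limma).

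Genes of the same pathway that are not among the 9 were followed in 3 lists: retinoid handling and receptors, known retinoic acid targets, and other alcohol and aldehyde dehydrogenases. The lists were drawn up with earlier results of these data known, so the counts and p-values of their genes are a description. Of 65 listed genes 59 had a probe set of their own, and 35 of these were above the median level. By limma's slope test 15 rose and 11 fell, beside 2900 rising and 3507 falling of all 18193 genes (15.9% and 19.3%). The median slope was -0.0035 log2 units per 24 h beside -0.0039 over all genes, weak signals included. Among the 35 above the median level 15 rose and 9 fell, beside 2788 rising and 3055 falling of 10366 such genes. Their median slope was 0.037 beside -0.011 over all such genes. Averaged to 6 h means, which leaves 8 points, 17 of the 59 passed (10 up, 7 down).

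**Figure D3:**
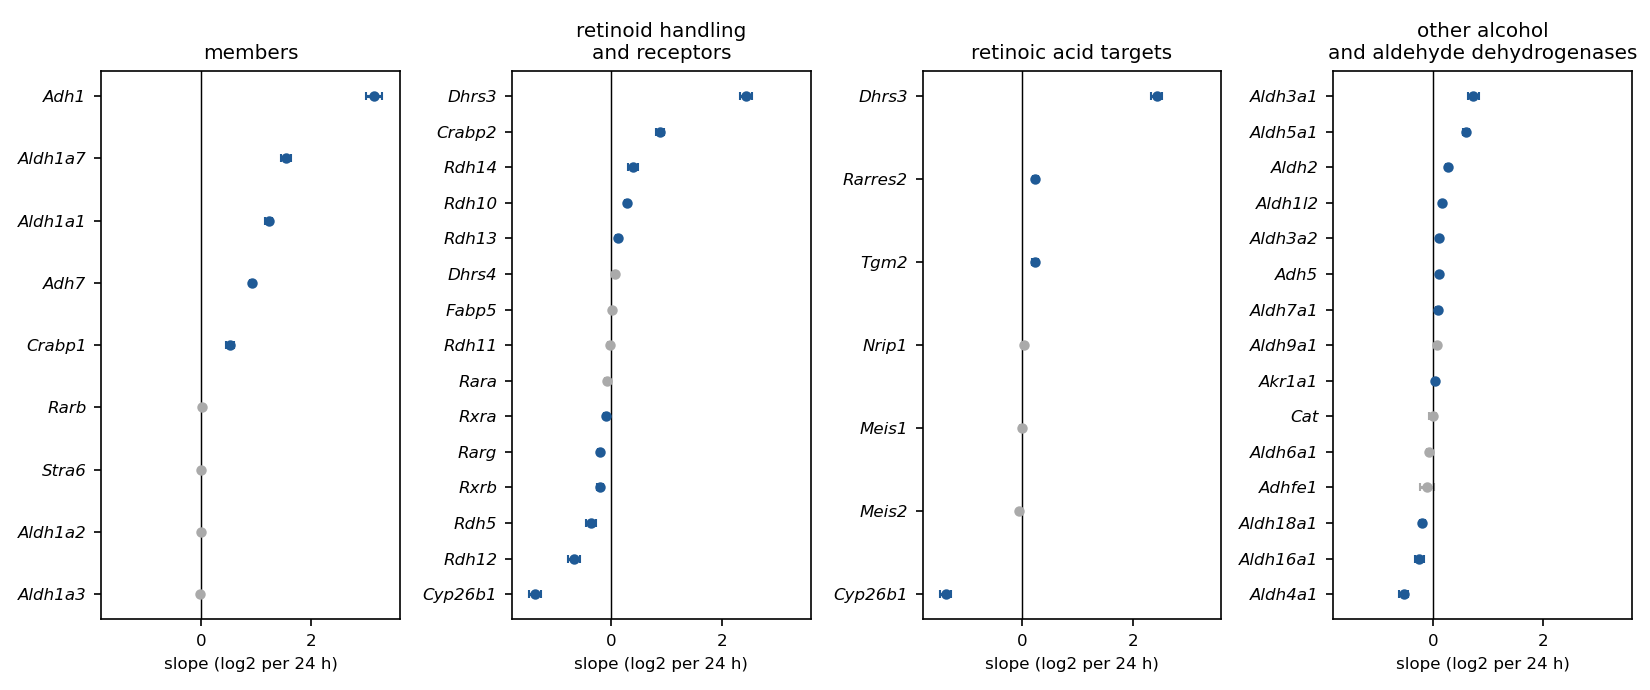
Slope in log2 units per 24 h with its standard error (horizontal axis) for the 9 members and for the genes of the 3 pathway lists whose mean was above the median of all probe sets, 1 point per gene from its brightest probe set. Blue points passed limma's test at an adjusted p of 0.05 and grey points did not, and Dhrs3 and Cyp26b1 stand at opposite ends of both lists that hold them.

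Among retinoid handling genes and receptors, 5 rose and 6 fell of 23 measured, 15 of them above the median. Dhrs3, the reductase that turns retinaldehyde back into retinol and a known target of retinoic acid, went from 10.57 ± 0.74 (SD, n = 6) in hours 20 to 25 to 14.21 ± 0.19 in hours 62 to 67. Its slope of 2.43 ± 0.10 log2 units per 24 h (5.39-fold per day, adjusted p = 5.9e-24, limma) had rank 16 from the top among 45037, and was as steep on both days (2.01 ± 0.32 on the first day and 2.04 ± 0.21 on the next). Cyp26b1, which degrades retinoic acid and is a known target as well, went the other way, from 12.65 ± 0.26 to 9.98 ± 0.42, with a slope of -1.38 ± 0.10 (adjusted p = 1.45e-15). These known targets therefore moved in opposite directions.

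Crabp2, which carries retinoic acid to its nuclear receptors, rose with 0.88 ± 0.08 log2 units per 24 h (adjusted p = 1.32e-13), all of it on the first day (1.53 ± 0.11, then 0.002 ± 0.10). Of the retinol dehydrogenases, Rdh14 rose with 0.39 ± 0.09, and Rdh12 and Rdh5 fell with -0.68 ± 0.10 and -0.37 ± 0.10. Rdh5 no longer passed without hours 20 to 25 (-0.16 ± 0.07, adjusted p = 0.11) or in 6 h means (adjusted p = 0.0845). With the 10 arrays marked for β-actin left out, the slopes of Rdh14 and Rdh5 shrank to 0.18 ± 0.05 and -0.12 ± 0.04, and with all probe sets of a gene averaged those of Rdh14 and Rdh12 shrank to 0.20 ± 0.04 and -0.44 ± 0.06. Chosen after their values were seen, Rdh10, the main retinol dehydrogenase of the embryo, rose on both its probe sets (0.28 ± 0.03 and 0.52 ± 0.04). The receptors Rxrb (-0.21 ± 0.05), Rarg (-0.20 ± 0.04) and Rxra (-0.10 ± 0.03), chosen likewise, fell slightly. Rara was at -0.08 ± 0.04 (adjusted p = 0.0665, limma). Rarg and Rxra were at 0.06 ± 0.10 and 0.01 ± 0.07 on the first day and -0.53 ± 0.07 and -0.31 ± 0.09 on the next. Only 1 of 2 Rarg and 1 of 3 Rxra probe sets passed downwards. Lrat, which stores retinol as esters, Rbp4, its carrier in blood, and Cyp26a1 had means of 5.41 to 5.49, at the bottom of the scale.

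Of the 17 measured target genes only 7 were above the median, and 3 rose and 2 fell, Dhrs3 and Cyp26b1 included. Rarres2, the chemerin gene, rose with 0.24 ± 0.05 log2 units per 24 h and Tgm2, tissue transglutaminase, with 0.24 ± 0.06, while Hoxa4 fell with -0.12 ± 0.04 at a level just below the median. The Tgm2 and Hoxa4 calls were lost in 6 h means (adjusted p = 0.207 and 0.165), and that of Hoxa4 also without hours 20 to 25 (adjusted p = 0.288). Among the other alcohol and aldehyde dehydrogenases 8 rose and 4 fell of 22. Aldh3a1, which oxidizes aldehydes from lipid peroxidation, gained 1.84 ± 0.17 on the first day and lost on the next (-0.50 ± 0.18), whereas all 5 detected members gained on both days. Over both days its slope was 0.73 ± 0.10 (adjusted p = 8.71e-08), a call lost in 6 h means (adjusted p = 0.0989), and 0.47 ± 0.10 without hours 20 to 25. Aldh5a1, a mitochondrial enzyme of GABA breakdown, rose with 0.60 ± 0.05 and Aldh2, the mitochondrial enzyme that clears acetaldehyde, with 0.27 ± 0.03, and Aldh4a1, of proline breakdown, fell with -0.53 ± 0.08. Aldh16a1 (-0.24 ± 0.08) and Aldh3b1 (-0.20 ± 0.07) fell, but neither passed with the 10 arrays marked for β-actin left out (-0.07 ± 0.04 and -0.07 ± 0.07), without hours 20 to 25 or in 6 h means, and Aldh3b1, at a level below the median, passed under only 4 of 10 alternatives. Adh5, the class III alcohol dehydrogenase, chosen after its values were seen, rose with 0.11 ± 0.01 (0.05 ± 0.01 with both its probe sets averaged), and Adh4, Adh6a and Adh6b were at the bottom of the scale. Of the 46 listed genes with a promoter window, 61 windows in all, 1 held DR5, Cyp26a1, and 5 held CACGTG. Of all single windows 0.0974% held DR5 and 7.15% held CACGTG.

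Genes whose courses were most like those of the detected members, by Pearson r over the 48 arrays among probe sets above the median, were named by a fixed rule, 3 for each member. For Adh1 they were Dtx4, a ubiquitin ligase of the Notch pathway (r = 0.986), Itgbl1, a secreted integrin-like protein (0.986), and Sort1, the sorting receptor sortilin (0.985). For Aldh1a1 they were Itgbl1 (0.977), Smoc2, a matrix protein (0.977), and Aldh1a7 (0.977), and for Aldh1a7 they were Aldh1a1, Dtx4 (0.974) and Adh1 (0.974). For Adh7 they were Igf1 (0.973), the matrix protein Dpt (0.973) and the protease inhibitor Ctla2a (0.972). Arrays in time order share any drift, so such correlations rest largely on the common climb. After a straight and a bent trend, but no daily cosine, had been taken out, these correlations were between 0.125 and 0.629. For Crabp1 the genes were another probe set of Igf1 (0.971), Trappc2l, a vesicle tethering subunit (0.966), and Htra1, a secreted protease (0.965). Their correlations stayed at 0.933, 0.922 and 0.931 after the same trends had been taken out. Crabp1 lay furthest from its fitted course at hours 20 and 45 (-0.94 and -0.78). The β-actin 3′ minus 5′ difference was high on both arrays (2.33 and 2.22). The correlations were not computed without such arrays, so the part of array quality in them was not tested.

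Array quality moved with part of the Crabp1 scatter. The difference between the 3′ and 5′ β-actin control probe sets, which grows as RNA is degraded or labelling falls short, had a median of 1.13 and exceeded 1.4 on 10 arrays, with a highest value of 2.42. On those 10 arrays Crabp1 lay -0.25 ± 0.38 (SD) from its fitted course and on the other 38 arrays 0.07 ± 0.13, below the fit on 8 of the 10, with the lowest value of -0.94 at hour 20, where the difference was 2.33. Adh1 lay 0.25 ± 0.39 above its course on the same 10 arrays against -0.07 ± 0.30, Aldh1a7 0.18 ± 0.18 against -0.05 ± 0.19, Aldh1a1 0.07 ± 0.12 against -0.02 ± 0.14 and Adh7 -0.07 ± 0.08 against 0.02 ± 0.13. The shift was therefore negative for Crabp1 and Adh7 and positive for the other 3. Without these arrays every slope kept its direction, at 3.34 ± 0.15 for Adh1, 1.60 ± 0.09 for Aldh1a7, 1.27 ± 0.07 for Aldh1a1, 0.89 ± 0.05 for Adh7 and 0.41 ± 0.04 for Crabp1.

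**Figure D4:**
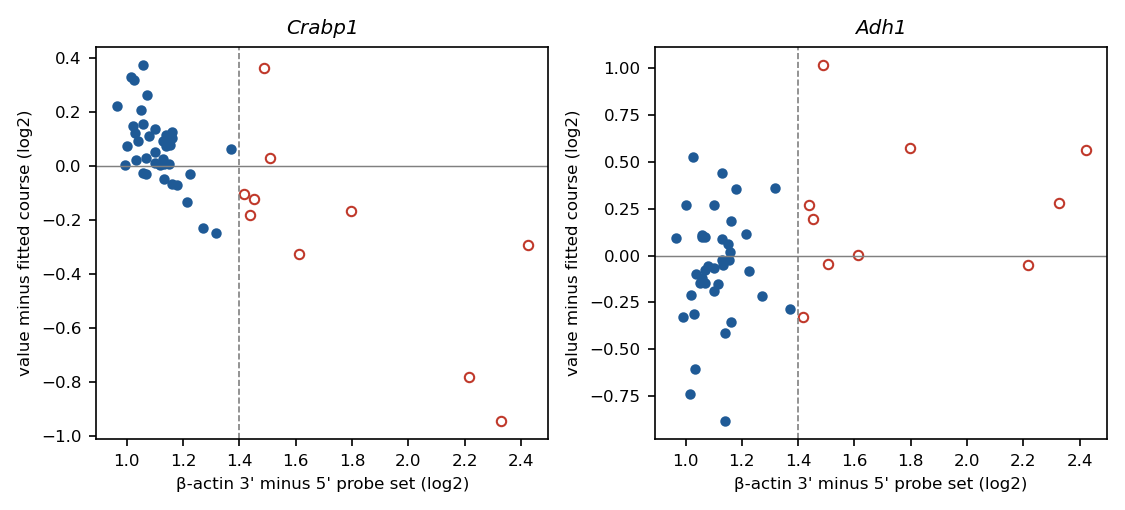
Distance of each array's log2 value from the fitted course (vertical axis) against the β-actin 3′ minus 5′ difference in log2 units (horizontal axis) for Crabp1 and Adh1, 1 point per array, with the dashed line at 1.4 and the 10 arrays above it as open red points. Crabp1 lay below its course on 8 of these 10 arrays, while Adh1 lay below on 3.

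The arrays otherwise resembled each other, with medians of 6.58 to 6.71 on the log2 scale, and hours 52 to 55 had a signal 0.90 higher on the BioB spike-in control. Fibroblast markers were bright throughout: 9 of 9 measured, such as Col1a1, Col3a1 and Vim, had means of 16.26 to 19.01. Their summed level was 21.35 to 21.44 in hours 20 to 43 and 21.35 to 21.47 in hours 44 to 67, a sum in which the brightest weigh most. Of these markers 5 rose and 3 fell, with slopes from -0.45 ± 0.02 (Thy1) to 0.29 ± 0.03 (Lum) log2 units per 24 h. Markers of hepatocytes (0 of 4, Alb at 5.43), endothelium (0 of 5) and hepatic stellate cells (0 of 5) were all below the median. Of 4 adipocyte markers 1 was above it, Fabp4, which rose with 0.58 ± 0.03 log2 units per 24 h, with Adipoq at 5.39, and the summed level of the list was 14.91 to 15.92 early and 15.73 to 16.34 late. Of 5 macrophage markers 1 was above it, Cd68 at 10.42, with Ptprc at 5.46 and Adgre1 at 5.44. Below it, Lyz2 rose with 0.45 ± 0.08 (adjusted p = 5.79e-06, limma) and Csf1r fell with -0.48 ± 0.18 (adjusted p = 0.0377), and the list had sums of 10.24 to 11.48 and 10.00 to 10.98. Of 5 neuronal markers 1 was above it, Snap25 at 15.14, which fell with -0.40 ± 0.03, with Rbfox3 at 5.55, and sums of 15.09 to 15.62 and 14.68 to 15.24. The part of such cell types in the rise of the members was not tested, and in a dish of cells more transcript per cell and more cells with the transcript cannot be told apart.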

How the data were processed

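Per the labels, total RNA of confluent NIH3T3 cells was hybridised to Affymetrix Mouse Genome 430 2.0 arrays, 1 per hour. The deposited values are linear intensities, background-corrected and normalized by the authors. The study's methods name GCRMA, with MAS5 for presence calls, the submitters' processing notes name MAS5, and the scaling constant is not given in the sources used here, so levels are relative. No counts exist, and the number of arrays limits the precision. Log2 values of 45037 probe sets, without 64 control sets, were fitted with limma 3.58.1 (R 4.3.3) with hour and a 24 h cosine as terms, without the hour for the window contrast and with a squared hour for the bend, and p-values adjusted over all probe sets by the Benjamini-Hochberg method. P-values reflect the scatter of hourly arrays about the fit, taken as independent, with any climb or bend that the fit leaves out. Rhythm tests were a cosine fit with 1000000 random series (scipy 1.17.1) and Fisher's G-test with Storey q-values. COSOPT itself was not run. Symbols came from the platform table, updated through gene identifiers (34945 probe sets with 1 symbol, 932 with several, 9160 with none). Scripts were tested on simulated data. The members and lists were chosen with earlier results of these data known. Named pathway genes were up to 6 per list by size of slope among those that passed, and named similar genes the 3 highest r per member. Alternatives covered normalization, an added constant of 32, low probe sets, β-actin, hours 52 to 55, hours 20 to 25, 6 h means, probe set choice and single arrays.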

Additional observations from a re-analysis of the deposited data

How the results depend on the processing

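The 5 members with a rise stayed 5 under all 11 alternatives to the fit, and so did the 5 that differed between windows. With single arrays left out, the count with a linear slope ran from 5 to 7 and that of the windows from 5 to 5. The count of 7 came without hour 67, when Aldh1a2 (-0.0041) and Aldh1a3 (-0.0074) passed, and Aldh1a3 also passed without hour 66 (-0.0072). These slopes are of negligible size. Slopes, given as a description of genes selected on their course, ran from 2.95 to 3.34 log2 units per 24 h for Adh1, 1.38 to 1.61 for Aldh1a7, 1.08 to 1.27 for Aldh1a1, 0.85 to 1.21 for Adh7 and 0.41 to 0.55 for Crabp1. The count with a 24 h cosine was 0 under all alternatives, cosines of 12 h and 8 h included, and from 0 to 0 with single arrays left out. The count of members rhythmic by cosine fit and G-test stayed 0, also with the trend removed before the G-test. The count with a bend, 4, became 6 with a term for hours 52 to 55 and 5 without hours 20 to 25, through upward bends of Aldh1a2 and Aldh1a3 at the bottom of the scale. Pathway genes with a slope numbered 26, and from 17 with 6 h means, which hold fewer points, to 33 with the 10 arrays marked for β-actin left out. An intensity-dependent prior was added after the data had been seen and moved no count. With the hour of the cycle as a block, which pairs arrays 24 h apart, 5 members differed between windows. The weak signal of 4 members limits what could be seen of them.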
